A study of Mus musculus with 2 samples.

Results

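The variable genes of the T cell receptor alpha chain (Trav) and beta chain (Trbv) were read in 1 single-cell expression library of mouse CD4 T cells. They were taken as every gene symbol that begins with Trav or Trbv followed by a digit, which gave 165 of the 55487 genes in the deposited table, 130 Trav and 35 Trbv. The cells were sorted out of 2 tissues, visceral adipose tissue (VAT) and spleen, of Treg-bmal1KO and Treg-bmal1WT mice, at zeitgeber times ZT12 and ZT0, with 34000 VAT and 32000 splenic cells sorted in all. All mice were of the strain C57BL/6 Foxp3.Cre-YFP, in which Cre comes from the Foxp3 gene, which acts in cells that express Foxp3, the regulatory T cells (Tregs), so that Treg-bmal1KO mice lack the clock gene Bmal1 in Tregs. The age, sex and number of mice are not given in the sources used here. The tissues, genotypes and times were tagged with hashtag antibodies and pooled before the library was made.

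A T cell receptor gene is put together in the thymus from separate V, D and J segments on the beta locus and V and J segments on the alpha locus. Each clone of T cells therefore carries usually 1 beta and 1 or a few alpha rearrangements, and shares them with all its descendants. The V segment lies near the 5′ end of the receptor mRNA and the constant segment near its 3′ end. A 3′ library, in which reads start from the poly(A) tail, reads the constant gene well and the V segment in a minority of cells. In mouse adipose tissue, Tregs with the IL-33 receptor (encoded by Il1rl1) are known for expanded clones, whereas naive T cells carry many small clones.

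The hashtags are named by number, and nothing in the files ties a number to a tissue, genotype or time. Tissues, genotypes and times were therefore not compared, and values are given hashtag by hashtag. Hashtags are not replicates of a condition, and with 1 library no test was run. Intervals after a value are exact 95% binomial (Clopper-Pearson) intervals, which cover counting error only. The oligos that carry the 6 hashtags used are shown because every comparison below rests on them, each written 5′ to 3′ with no base marked.
Hash1: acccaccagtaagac
Hash2: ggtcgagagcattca
Hash3: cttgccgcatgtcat
Hash4: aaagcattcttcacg
Hash5: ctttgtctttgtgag
Hash6: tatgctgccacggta

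The library held 22960 barcodes and 96923402 unique molecular identifiers (UMIs, each 1 captured mRNA). After hashtag calling and filtering, 12908 T cells with 1 hashtag remained, with a median of 3201 UMIs. Hashtags 1 to 6 held 2790, 1527, 1877, 1281, 3403 and 2030 of them, and their median depth was 2832 UMIs in hashtag 1 and 3776 UMIs in hashtag 6, the shallowest and the deepest. Cd4 was seen in 43.1% of these cells, and of the CD8 genes Cd8a was seen in 0.0387% and Cd8b1 in 3.47%. Classes were read from single genes. There were 2547 Il1rl1+ cells, 772 Foxp3+ cells (Foxp3, the Treg master factor), 3772 Cxcr3+ cells (Cxcr3, a chemokine receptor of Th1 cells), 479 Klrd1+ cells (Klrd1, CD94 of NK receptors) and 1892 naive-type cells, which had at least 2 of 5 genes of naive T cells, Ccr7, Dapl1, Igfbp4 and Lef1 among them, and no UMI of the 4 class genes or of S100a4. The classes overlapped, with 1099 cells in more than 1 class, and 383 of the Il1rl1+ cells were also Foxp3+. In the Il1rl1+ cells 66.0% had Klrg1 and 50.1% had Areg, against 4.28% and 8.09% of naive-type cells, while Foxp3 was seen in 15.0%. Il1rl1+ is therefore used as the name of a gene read, not of a Treg.

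V segments were seen in a minority of T cells. At least 1 Trav UMI was present in 1734 of 12908 T cells (13.4%, 12.8 to 14.0%) and at least 1 Trbv UMI in 1371 (10.6%, 10.1 to 11.2%). Both chains were seen in 213 cells (1.65%). The constant genes were seen far more often, Trac in 79.95% and Trbc1 or Trbc2 in 97.0% of T cells. Trav UMIs made up 7.39% of Trav plus Trac UMIs, and Trbv UMIs 1.32% of Trbv plus Trbc UMIs. There were 1.26 UMIs per cell and segment for Trav and 1.10 for Trbv. The J segments, which adjoin V in the mRNA, were rarer still: Traj genes were seen in 45 T cells and Trbj genes in 10. In 64 barcodes with B cell, macrophage or endothelial genes and no CD3 UMI (median 3528 UMIs), each chain was seen in 1 barcode (1.56%, 0.0396 to 8.40%). That share lies below the share in T cells at a similar depth, although its interval for 64 barcodes is wide.

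Many of the 165 genes gave no signal. In T cells 65 were at 0 UMIs, 52 Trav and 13 Trbv. RefSeq (GRCm38.p6) marks 29 of the 165 as pseudogenes, and 26 of these were among the genes at 0. The other 3 had signal, with 18 UMIs of Trbv29, 7 of Trav20 and 3 of Trav22. Trbv29 is named below as a segment that type I NKT receptors use, which is at odds with its mark. Of the 22 Trbv genes not marked as pseudogenes, 1 was at 0. The Trav genes lie at chr14:52427967-53977678 and the Trbv genes at chr6:40891296-41558371 in GRCm38. In C57BL/6 mice part of the alpha locus is present in several copies, marked by d or n in the symbol. The 40 d copies took 11.3% of Trav detections and the 34 n copies took 16.9%, against 71.8% for the 56 genes without a letter. Of the d copies 24 were at 0, of the n copies 20, and of the genes without a letter 8. Copies are close to identical in places, so reads from 1 copy may have been dropped as ambiguous or given to another, and values of single copies are uncertain for that reason. How many reads were lost in this way was not tested.

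Among the beta segments Trbv2 led. It was seen in 294 T cells, 20.9% of the 1409 Trbv detections (18.8 to 23.1%), and in hashtags 1 to 6 it was seen in 45, 26, 32, 27, 101 and 63 cells. Trbv20 followed with 161 cells (11.4%), Trbv19 with 113 (8.02%), Trbv3 with 106 (7.52%) and Trbv13-1 with 89 (6.32%). The intervals of Trbv2 and Trbv20 do not overlap those of their neighbours in this order, whereas those of Trbv19 and Trbv3 do. Trbv12-2, Trbv13-2, Trbv1, Trbv26 and Trbv31 were seen in 56 to 83 cells, and the 10 leading beta segments together took 80.6% of detections. How far 3′ capture and mapping differ between segments was not tested, so the order is one of detections and not of clones.

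The alpha segments, among them those marked dv that also count as delta variable genes, were spread more evenly. Trav6-7-dv9 led with 132 T cells, 7.12% of the 1855 Trav detections (5.99 to 8.38%). Trav16 (129 cells), Trav3-3 (127) and Trav16n (116) came next, and the intervals of all 4 overlap. Trav14d-3-dv8 had 90 cells, Trav5-4 66, Trav14-2 61, Trav4-4-dv10 56, Trav19 50 and Trav12-3 48. The 10 leading alpha segments took 47.2% of detections. Of the 130 Trav genes, 49 were seen in at least 10 T cells, and of the 35 Trbv genes, 20 were.

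Detection was lowest in Il1rl1+ cells for Trbv and in Klrd1+ cells for Trav. Trbv was seen in 8.01% of Il1rl1+ cells (6.98 to 9.13%), 10.9% of Foxp3+, 11.9% of Cxcr3+ and 11.1% of Klrd1+ cells, against 12.1% of naive-type cells (10.7 to 13.7%). For Trav the shares were 12.2% in Il1rl1+ cells (11.0 to 13.6%), 12.8% in Foxp3+, 12.9% in Cxcr3+ and 11.7% in Klrd1+ cells, against 15.5% in naive-type cells (13.9 to 17.3%). For both chains the interval of the pooled Il1rl1+ cells lay below that of the pooled naive-type cells. With each cell thinned to 1500 UMIs, which leaves out 147 Il1rl1+ and 44 naive-type cells, the direction was the same, with 3.32% of Il1rl1+ against 5.11% of naive-type cells for Trbv, and 5.43% against 6.92% for Trav.

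Within hashtags the pooled direction was kept in part. Naive-type cells came mostly from hashtags 5 and 6 (949 and 627 of 1892), and Il1rl1+ cells mostly from hashtags 1 to 4 (736, 594, 426 and 534 of 2547). Within a hashtag, Trbv was seen in fewer Il1rl1+ than naive-type cells in 4 of 6 hashtags, and the intervals were apart in hashtag 4 alone, with 6.37% of Il1rl1+ and 20.3% of naive-type cells. Trav was seen in fewer Il1rl1+ cells in 3 of 6 hashtags, and in hashtag 5 it was seen in 22.4% of Il1rl1+ cells (16.2 to 29.8%) and 16.5% of naive-type cells (14.2 to 19.1%). The share of Trav among Trav plus Trac UMIs was also lower in the other classes, 5.95% in Il1rl1+ (5.39 to 6.55%), 5.97% in Foxp3+, 6.43% in Cxcr3+ and 5.80% in Klrd1+ cells, against 8.53% in naive-type cells (7.74 to 9.37%). Within hashtags this share was lower in Il1rl1+ than naive-type cells in 5 of 6. In hashtag 4 the intervals were narrowly apart, with 5.57% in Il1rl1+ (4.39 to 6.95%) and 12.4% in naive-type cells (7.11 to 19.6%). Hashtag 5 went the other way, with 10.4% in Il1rl1+ and 8.43% in naive-type cells. Intervals of UMI shares take each UMI as independent, although several can come from 1 cell, so they are too narrow. The 15 Trav UMIs of naive-type cells in hashtag 4 came from 9 detections.

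**Figure D1:**
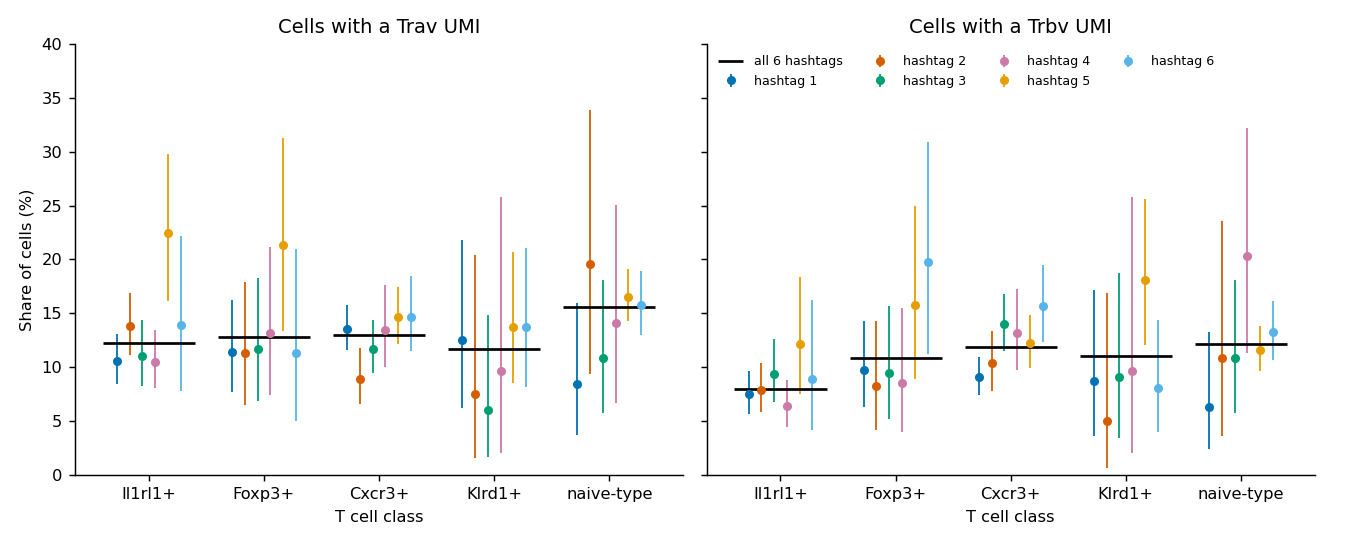
Share of cells with at least 1 Trav UMI (left panel) and at least 1 Trbv UMI (right panel), in percent, for 5 T cell classes and 6 hashtags. Points are hashtags with exact 95% intervals and black lines are all 6 hashtags together; the Il1rl1+ line for Trbv lies at 8.01% and the naive-type line at 12.1%, while the intervals of the single hashtags mostly overlap.

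The shares of most leading segments did not differ between classes beyond counting error. Of the beta segments, Trbv2 took 21.1% of Trbv detections in Il1rl1+ cells, 23.0% in Foxp3+, 19.9% in Cxcr3+ and 14.5% in Klrd1+ cells, against 23.7% in naive-type cells, with overlapping intervals. Only 3 pairs of a segment and a class with at least 100 detections had an interval apart from that in naive-type cells. The 49 Trav segments seen in at least 10 T cells were compared in Il1rl1+, Foxp3+ and Cxcr3+ cells. The 20 such Trbv segments were compared in Il1rl1+ and Cxcr3+ cells. A share of a chain is not defined for other genes, so there is no background share. Whether 3 pairs are more than counting error gives was not tested. Trbv12-2 took 34 of 462 Trbv detections in Cxcr3+ cells (7.36%, 5.15 to 10.1%), against 4 of 236 in naive-type cells (1.69%, 0.464 to 4.28%). In Il1rl1+ cells it took 6.70%, in Foxp3+ 4.60% and in Klrd1+ cells 7.27%. Their intervals overlap those of both Cxcr3+ and naive-type cells, so the higher share is not particular to Cxcr3+ cells. Trbv12-2 was seen in Cxcr3+ cells of all 6 hashtags, in 9, 5, 6, 6, 5 and 3 cells. In naive-type cells it was seen in hashtags 5 and 6 alone, in 3 and 1 cells. Naive-type cells of the other 4 hashtags had 6, 5, 12 and 13 Trbv detections in all, so that a Trbv12-2 cell could easily be missed there. With doublets kept, the difference was 2.65 percentage points, against 5.66 here.

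The other pairs were alpha segments. Trav14d-3-dv8 took 12 of 518 Trav detections in Cxcr3+ cells (2.32%, 1.20 to 4.01%), against 23 of 320 in naive-type cells (7.19%, 4.61 to 10.6%). In hashtag 5 it was seen in 4 of 110 detections of Cxcr3+ and 11 of 170 of naive-type cells, and in hashtag 6 in 2 of 67 and 9 of 108. Within each of these hashtags the intervals overlap. Over all T cells it was higher in hashtag 6, with 28 of 2030 cells against 62 of 10878 in the others. It was lower in hashtag 1, with 9 of 2790 against 81 of 10118. Naive-type cells came mostly from hashtags 5 and 6, so its pooled shares mix class with hashtag. Trav14-2 took 1 of 332 Trav detections in Il1rl1+ cells (0.301%, 0.00763 to 1.67%), against 13 of 320 in naive-type cells (4.06%, 2.18 to 6.85%). Of those 13 cells 7 were in hashtag 5 and 3 in hashtag 6, where Il1rl1+ cells had 41 and 14 Trav detections and none of Trav14-2.

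**Figure D2:**
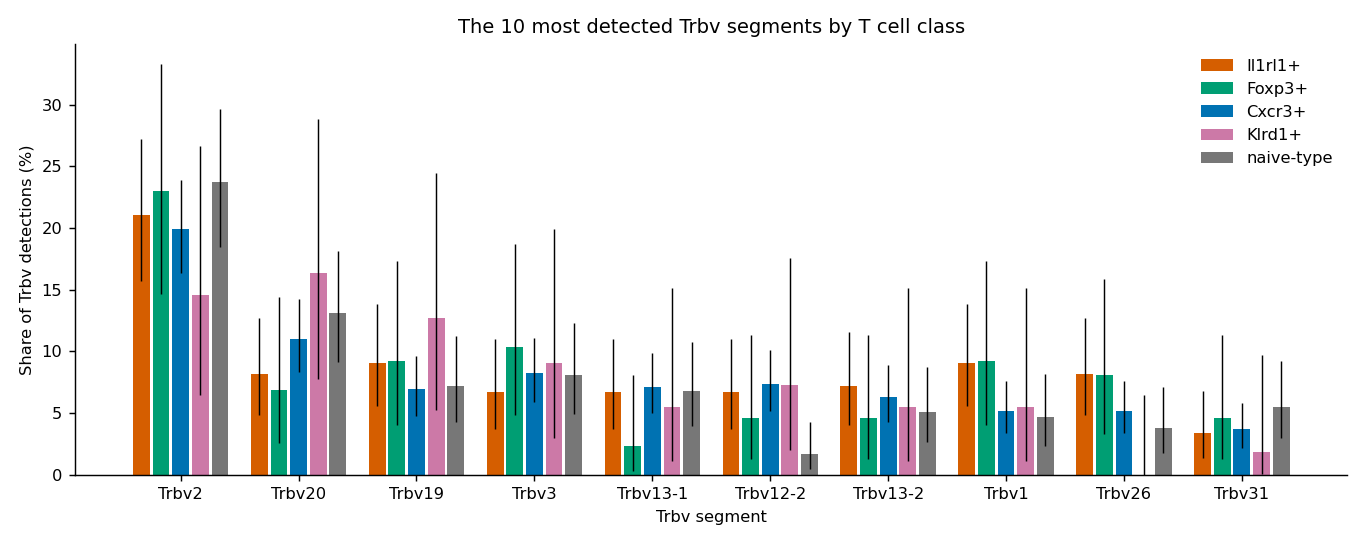
Share of all Trbv detections taken by each of the 10 most detected Trbv segments, in percent, for the 5 T cell classes with the naive-type class in grey; error bars are exact 95% intervals. Trbv2 leads in 4 of the 5 classes and Trbv20 in Klrd1+ cells. Trbv12-2 stands at 7.36% in Cxcr3+ and 1.69% in naive-type cells, and between 4.60 and 7.27% in Il1rl1+, Foxp3+ and Klrd1+ cells.

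Evenness was read as an effective number of segments, the inverse of the chance that 2 detections of a chain are of the same segment. It equals the number of segments when all are used alike and falls as a few take over. For Trbv it was 10.8 ± 1.0 in Il1rl1+, 10.4 ± 1.7 in Foxp3+, 11.5 ± 0.75 in Cxcr3+ and 12.4 ± 2.3 in Klrd1+ cells, and 9.88 ± 1.0 in naive-type cells (standard error of counting, approximate and too wide at few detections). These values lie within the counting error of each other. For Trav it was 26.2 ± 2.3 in Il1rl1+, 34.5 ± 6.2 in Foxp3+, 30.5 ± 2.3 in Cxcr3+ and 33.4 ± 9.8 in Klrd1+ cells, and 31.2 ± 2.9 in naive-type cells. Pooling hashtags evens out segment use that differs between them, so the values within hashtags are also given.

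Within hashtags the effective number of Trav in Il1rl1+ cells was lowest in hashtags 2 and 3, without standing apart from the other hashtags. The effective number of Trav in Il1rl1+ cells of hashtags 1 to 5 was 20.8 ± 4.4, 12.6 ± 2.5, 13.9 ± 3.5, 24.8 ± 6.8 and 31.5 ± 13.3, from 82, 85, 51, 59 and 41 detections. Taken as intervals of 2 standard errors to each side, the values of hashtags 2 and 3 overlap those of hashtags 1, 4 and 5. Hashtag 6 had 14 detections and was not given a value. Naive-type cells had enough detections in hashtags 5 and 6 alone, with 31.2 ± 4.5 and 28.6 ± 5.5. No hashtag thus had both a low value in Il1rl1+ cells and a value in naive-type cells. The Cxcr3+ cells of hashtags 2 and 3 had 29.7 ± 9.6 and 26.1 ± 5.6, and in hashtags 1 to 6 they ranged between 21.7 and 41.7. With Trbv, Il1rl1+ cells of hashtags 1 to 4 had 8.58 ± 2.0, 9.81 ± 2.1, 12.8 ± 2.8 and 8.76 ± 2.2, and the low Trav value of hashtag 2 had no counterpart there beyond counting error. With every barcode given to its highest hashtag, doublets kept, the Trav values of Il1rl1+ cells in hashtags 2 and 3 were 22.2 and 23.6. With alpha copies summed, the values in hashtags 1 to 5 were 13.6, 7.5, 11.6, 23.1 and 16.7. Other cells also had lower values with summed copies, 18.8 in Cxcr3+ cells of hashtag 2 and 12.6 in those of hashtag 1, and 18.3 in naive-type cells of hashtag 5.

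**Figure D3:**
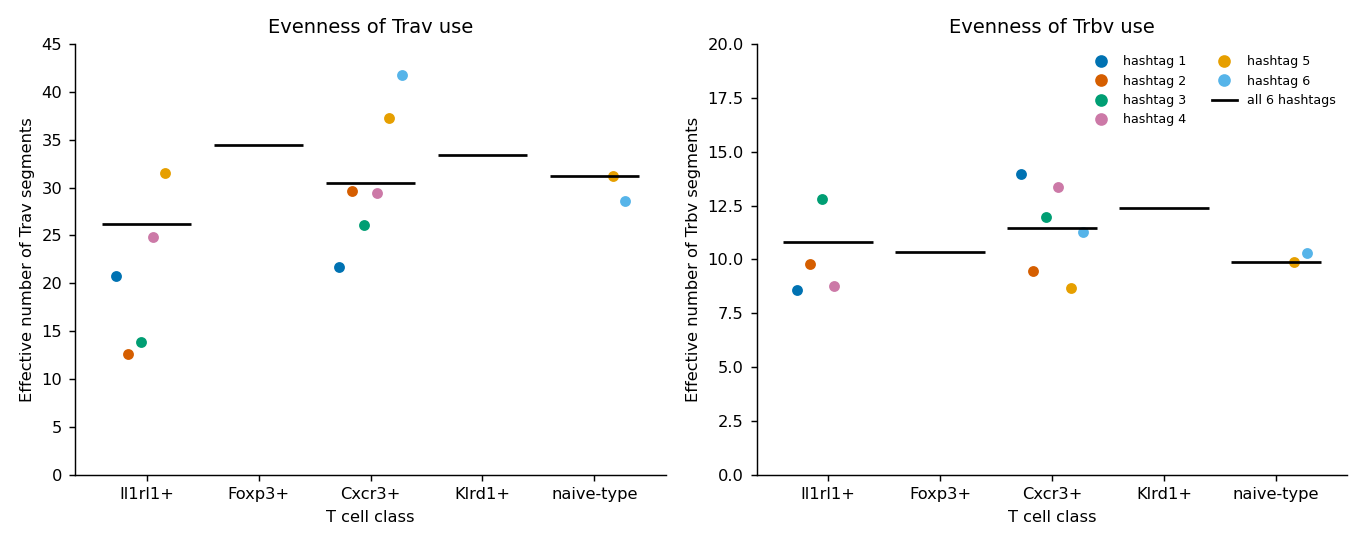
Effective number of Trav (left) and Trbv (right) segments per class, for hashtags with at least 30 detections (points) and all hashtags together (black lines). The Trav points of Il1rl1+ cells in hashtags 2 and 3 lie at 12.6 and 13.9, below the other Trav points, while the Trbv points spread between 8.58 and 14.0.

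Trav12-3 led the Il1rl1+ cells of hashtag 2. It was seen in 18 of their 85 Trav detections (21.2%, 13.1 to 31.4%), and the cells of hashtags 1, 3, 4, 5 and 6 had 0, 0, 0, 0 and 1. As a share of cells this was 18 of 594 Il1rl1+ cells in hashtag 2 (3.03%, 1.81 to 4.75%), against 1 of 1953 in the other hashtags (0.0512%, 0.00130 to 0.285%). The gene lies at chr14:53621752-53622245 in GRCm38 and is annotated as a functional V segment, and its copies Trav12d-3 and Trav12n-3 were at 0. It was looked at closely after its values had been seen. Without the cells with Trav12-3, the effective number of Trav in Il1rl1+ cells of hashtag 2 was 16.6. A rise follows from taking out so large a share, and leading segments of other hashtags were not taken out in the same way. With doublets kept, Trav12-3 took 12.7% of the Trav detections of Il1rl1+ cells of hashtag 2.

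Over all T cells of hashtags 1 to 6, Trav12-3 was seen in 2, 27, 3, 2, 8 and 6 cells. Of the 27 in hashtag 2, 9 had no Il1rl1 UMI, from 933 such cells, and 5 of these 9 had Areg. The 27 cells had a median of 3282 UMIs, against 2890 in other T cells of hashtag 2, and together 32 Trav12-3 UMIs. Il1rl1 was seen in 66.7% of them, against 38.4% of the other 1500 T cells of hashtag 2, which is no finding, since the segment was picked for its count in Il1rl1+ cells. Of the 9 other markers of the Treg and ST2 Treg lists, 5 had a higher share in the 27 cells with intervals apart, Areg, Klrg1, Il2ra, Gata3 and Ikzf2. These 5 were also more frequent in Il1rl1+ cells than in all T cells (Areg in 50.1% against 18.5%). The pick therefore weighs on them too, and they are no separate finding. Areg, the tissue repair factor amphiregulin, was seen in 19 of 27 (70.4%, 49.8 to 86.2%), against 30.5% of the others (28.1 to 32.9%). Klrg1, a receptor of terminally differentiated cells, was seen in 21 (77.8%, 57.7 to 91.4%), against 42.6%. For Ctla4, Tnfrsf18, Foxp3 and Pparg the intervals overlap, and Pparg, a factor of adipose tissue Tregs, was seen in 1 of 27 (3.70%), against 8.33% of the others. Cxcr3 was seen in 1 of the 27, against 32.8% of the others (30.4 to 35.2%). It was also rarer in Il1rl1+ cells (18.6%) than in all T cells (29.2%), so the pick weighs on it as well. Ccr7, a lymph node homing receptor, was seen in 1, against 12.5%, with overlapping intervals. Within the Il1rl1+ cells of hashtag 2, a comparison added after the data were seen, none of the 9 markers, Cxcr3 or Ccr7 had its intervals apart, and Areg was in 14 of 18 cells with Trav12-3 (77.8%, 52.4 to 93.6%), against 59.4% of the other 576 (55.2 to 63.4%). Among cells with no Il1rl1 UMI, Areg was in 5 of 9 (55.6%, 21.2 to 86.3%), against 12.4% of 924 (10.4 to 14.7%). Ikzf2 was in 7 of these 9 and Cxcr3 in none, against 35.5% and 44.0% of the 924, also with intervals apart. For Klrg1, Il2ra, Gata3, Ctla4, Tnfrsf18, Pparg, Foxp3 and Ccr7 the intervals overlap. Tnfrsf18 was in 44.4% of the 9, against 40.8%, and Pparg in none, against 1.73%. These 9 cells are of 1 hashtag and are not replicates. An Il1rl1 transcript can be missed in a cell, so the pick may weigh on them too, and they are no separate finding. The share of all genes with intervals apart was not computed for these cells. A beta segment was seen in 3 of the 27 cells, Trbv1 in 2 and Trbv3 in 1, too few to show whether they shared 1.

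Pooled over hashtags, segments had their intervals apart no more often than other genes did. All genes seen in at least 10 cells of a class were compared between each hashtag and the other 5 by whether the 2 intervals for the share of cells were apart. This was added after the values had been seen. In Il1rl1+ cells 20 segments could be compared, or 120 pairs of a segment and a hashtag. Of these pairs 5 were apart, where 4.73% of all pairs of a gene and a hashtag were. Segments were seen in few cells (at most 44 of 2547 Il1rl1+ cells, for Trbv2), so their intervals are wide. A similar share apart therefore does not show that segments vary no more than other genes. Higher in hashtag 2 were 2 of 20, Trav12-3 and Trav16d-dv11, where 2.4% of the 12873 genes were. Trav16d-dv11 was seen in 7 of 594 cells of hashtag 2, against 3 of 1953 in the others. Higher in hashtag 4 was 1 of 20, Trav19, where 0.699% of genes were. It was seen in 7 of 534 cells of hashtag 4, against 3 of 2013 in the others. Trav12-3, Trav16d-dv11 and Trav19 reached the minimum of 10 cells only through the hashtag where they were higher. These higher calls are therefore no separate support for a difference between hashtags. Lower in hashtag 4 was Trav16n (2.66% of genes), with 0 of 534 cells against 26 of 2013. Lower in hashtag 1 was Trav12-3 (0.52% of genes), with 0 of 736 cells against 19 of 1811, of which 18 were those of hashtag 2. Hashtags 3, 5 and 6 had none. Trav13n-4 was too rare in Il1rl1+ cells to be compared, with 8 cells, of which 7 were in hashtag 3 and made up 7 of its 51 Trav detections.

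**Figure D4:**
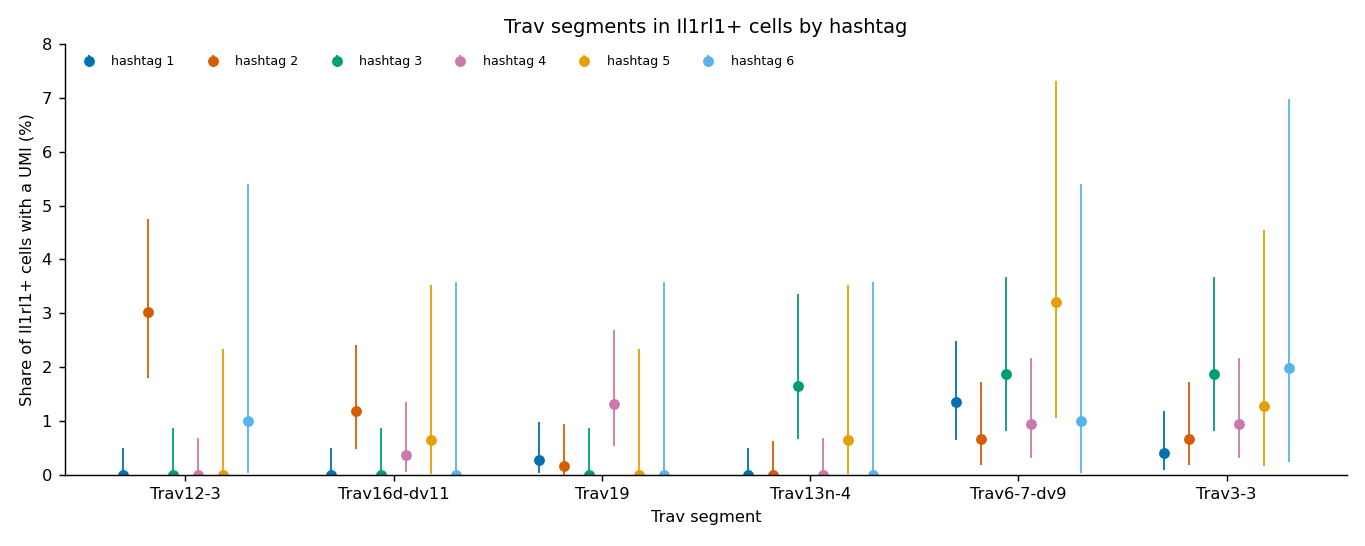
Share of Il1rl1+ cells, in percent, with a UMI of each of 6 Trav segments, for hashtags 1 to 6 with exact 95% intervals. Trav12-3 stands at 3.03% in hashtag 2 and at 0 in hashtags 1, 3, 4 and 5, whereas Trav6-7-dv9 and Trav3-3 were seen in every hashtag.

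In Cxcr3+ cells 28 segments could be compared, and 2 of 168 pairs were apart, where 5.2% of all pairs were. Trav16 was higher in hashtag 1, with 21 of 1113 cells (1.89%, 1.17 to 2.87%) against 17 of 2659 in the others (0.639%, 0.373 to 1.02%), where 2.33% of genes were higher. Trbv20 was higher in hashtag 6, with 13 of 422 cells against 38 of 3350, where 6.1% of genes were. In Foxp3+ cells 2 segments could be compared and none had its intervals apart, where 2.55% of all pairs did. In naive-type cells 17 could be compared, again with none apart, where 2.64% of all pairs were. No segment reached 10 cells among Klrd1+ cells. Over all T cells, 69 segments could be compared. Of their 414 pairs 12 were apart, where 15.8% of all pairs were. Higher were 1 in hashtag 1 (6.43% of genes), 2 in hashtag 2 (6.97%), 2 in hashtag 5 (12.5%) and 2 in hashtag 6 (13.7%). Lower were 4 in hashtag 1 (8.49%) and 1 in hashtag 2 (7.19%). Beside Trav12-3, the T cells of hashtag 2 had Trav7n-4 in 6 of 1527 cells, against 5 of 11381 in the others, and Trav14n-3 in none, against 43. The T cells of hashtag 5 had more Trbv4 (14 of 3403, against 9 of 9505). Trav7n-4 and Trbv4 reached the minimum of 10 cells only through the hashtag where they were higher, so these calls are no separate support either.

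Against naive-type cells, few segments passed a 2-fold difference in summed UMIs. Class and naive-type sums were compared within each hashtag with at least 50 cells of both, as the log2 ratio of CPM (counts of a gene relative to all UMIs of the sum) with a prior count of 0.5. A gene was called when its median was past 2-fold and its sign the same in every hashtag. Of 17 segments with at least 20 UMIs in Il1rl1+ and naive-type cells, 1 was higher (5.55% of 12238 genes were) and 1 lower (1.45%). They were Trav6-7-dv9, at 4.80 against 3.08 CPM (median log2 difference 1.35, range 0.02 to 2.72 over 5 hashtags), and Trav16, at 1.26 against 4.68 (-1.59, range -2.88 to -0.05). Of 10 in Foxp3+ cells none was higher (6.03%) or lower (1.56%). Of 30 in Cxcr3+ cells Trbv12-2 was higher (4.54%), at 2.52 against 0.535 CPM (1.17, range 0.67 to 1.85), and Trav14d-3-dv8 lower (1.7%), at 1.06 against 2.94 (-1.12, range -3.12 to -0.26). Of 10 in Klrd1+ cells Trbv19 was higher (2.82%), with 9 against 14 UMIs from a far smaller sum of cells (1.46, range 0.65 to 2.52), and none was lower (0.932%).

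These counts are small and the prior count weighs on them. Trbv12-2 in Cxcr3+ cells of hashtags 1, 3, 4, 5 and 6 had 10, 6, 7, 5 and 3 UMIs, against 0, 0, 0, 3 and 1 in naive-type cells. Trav16 in hashtag 4 had 1 UMI in Il1rl1+ cells and 0 in naive-type cells, and its log2 difference there was still -1.59, since the Il1rl1+ sum was the deeper. With a prior count in proportion to depth, an alternative added after the data were seen, Trbv12-2 was again called higher in Cxcr3+ cells (2.99, range 1.11 to 3.56). The other 4 were not called: the sign of Trav6-7-dv9 (2.71), Trav16 (-0.86) and Trav14d-3-dv8 (-0.87) then differed between hashtags, and Trbv19 (1.24) was at 0 in hashtag 3. With that prior Trbv13-1 was lower (-1.02) and Trav21-dv12 higher (1.07) in Il1rl1+ cells, and Trav7-5 higher in Cxcr3+ cells (2.19). Any UMI of the class against 0 in naive-type cells then gives a positive sign. Naive-type cells of hashtags 1, 3 and 4 had 0 UMIs of Trbv12-2, Trav21-dv12 and Trav7-5. Their sums were small, 308688 UMIs in hashtag 1 against 4072950 of Cxcr3+ cells. These segments' higher calls with that prior are therefore no separate support for a difference.

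Over all tested segments the median log2 difference from naive-type cells was -0.55 in Il1rl1+, 0.04 in Foxp3+, -0.11 in Cxcr3+ and 0.19 in Klrd1+ cells, against 0.13, 0.20, 0.15 and 0.10 over all genes tested. With the prior in proportion to depth the same medians were 0.00, 0.12, 0.43 and -0.25. Of the receptor's other genes (constant genes, CD3 chains, coreceptors, recombination enzymes and the first kinases and adaptors), 15 or 16 of 19 had enough UMIs in each class. None was called in Il1rl1+, Foxp3+ or Klrd1+ cells. Dntt, which adds bases at the joints during rearrangement, was called lower in Cxcr3+ cells, with 4 against 17 UMIs (-2.29), and not with the prior in proportion to depth (-0.84). Rag1 and Rag2, the recombinase of immature cells, were at 0 in every class compared. Trac was at 595 CPM in Il1rl1+ and 556 in naive-type cells.

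Most cells with a V segment had 1. Among T cells with Trbv, 37 of 1371 had 2 or more Trbv segments (2.70%, 1.91 to 3.70%), and among those with Trav, 118 of 1734 had 2 or more Trav segments (6.81%, 5.67 to 8.09%). A T cell can carry a second rearranged alpha chain more often than a second beta chain. The Trbv share was 2.45% in Il1rl1+, 3.57% in Foxp3+, 3.13% in Cxcr3+ and 3.77% in Klrd1+ cells, and 3.06% in naive-type cells. Barcodes called as doublets by their hashtags, looked at after the values had been seen, had 2 or more Trbv in 7.77% (6.11 to 9.71%) and 2 or more Trav in 12.6% (10.8 to 14.6%), at a median of 6068 UMIs. T cells with 2 or more Trbv had a median of 5312 UMIs, against 3669 in all T cells with Trbv. Of 124 alpha pairs within a cell, 5 were of copies of the same segment, and all 5 joined Trav16d-dv11 and Trav16n.

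Pairs of an alpha and a beta segment in the same cell were seldom seen again. The 213 T cells with both chains gave 224 combinations of alpha, beta and hashtag, of which 212 were in 1 cell, 9 in 2 and 3 in 3 cells. Those in 3 cells were Trav14-1 with Trbv13-2 in hashtag 6, and Trav3-3 with Trbv2 and Trav7-5 with Trbv19 in hashtag 5. Trav12-3 with Trbv1 in hashtag 2 was among the 9. A shared pair of V segments is not a shared clone, since the joints were not read.

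The alpha segments of invariant receptors were rare. Trav11, the alpha segment of type I NKT cells, was seen in 8 T cells, 1 in hashtag 2, 5 in hashtag 5 and 2 in hashtag 6. Of these 3 were Cxcr3+, 1 was naive-type and none was Klrd1+, and 0 of 479 Klrd1+ cells allows a share of cells with a Trav11 UMI of up to 0.626% (a limit of 3 counts, for counting error only). This does not limit the share of cells that use Trav11, since any Trav was seen in 11.7% of these cells. Its copy Trav11n was seen in 4 T cells and Trav11d in none. Trav1, the alpha segment of MAIT cells, was seen in 5 T cells, none of them Klrd1+. The beta segments that type I NKT receptors mostly use, Trbv13-2, Trbv29 and Trbv1, were each seen in 3 Klrd1+ cells. Zbtb16, the transcription factor of both lineages, was seen in 2.09% of Klrd1+ and 0.423% of naive-type cells, and Klrb1c, which encodes NK1.1, in 10.6% and 0.264%.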

How the data were processed

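The authors deposited UMI counts by gene and cell barcode, and read-derived counts by hashtag and barcode, both without normalisation. Cell Ranger 6.0, Seurat 3 and mm10 are named in the submitters' processing notes. Per the file header the version was cellranger 4.0.0, and this conflict was not settled. Hashtags with more than 1000 counts were used, and HTODemux at quantile 0.99, in R 4.3.3 with Seurat 5.3.0, sorted 22952 expression barcodes into 14879 single, 5804 doublet and 2269 without a call. Doublets that carry 1 hashtag pass this step. The filters were 500 genes or more and less than 10% of UMIs from mitochondrial genes. T cells had at least 1 UMI of Cd3d, Cd3e or Cd3g and at most 2 UMIs over 8 genes of other cells.

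Shares, intervals and the inverse of the unbiased Simpson index were computed with scipy 1.17.1, numpy 2.4.6 and pandas 2.3.3 under Python 3.11.15, the index where a chain had at least 30 detections, a detection being 1 segment in 1 cell. Its standard error is from the multinomial variance. The ratio of class sums and these formulas were tested on simulated data. Alternatives were another hashtag rule, stricter filters, stricter classes, thinning, UMIs in place of cells, summed copies, each hashtag left out, TMM factors (edgeR 4.0.16), no minimum of UMIs, another reference and a scaled prior count. Named are the 10 most detected segments of each chain, those leading a class with at least 100 detections or with an interval apart from naive-type cells, and the segments of invariant receptors. Trav16d-dv11, Trav13n-4, Trav7n-4, Trav14n-3, Trbv4, Trbv13-1, Trav21-dv12, Trav7-5, Trav14-1, Trav20 and Trav22 were named after their values were seen, where they fall outside this rule. The members and lists were chosen with earlier results of these data known. The remaining gene of the naive-type list is not reported here.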

Additional observations from a re-analysis of the deposited data

Results flagged for a closer look

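Variable genes with symbols that begin with Trgv (gamma) or Trdv (delta), which no comparison above uses, also had UMIs in these CD4-sorted cells. Trav segments with dv in the symbol also count as delta variable genes, and they were compared above as Trav. The delta constant gene Trdc was seen in 172 T cells, with 2.09% of Klrd1+ and 2.33% of naive-type cells. Whether a dv segment was read from an alpha or a delta chain was not tested. Trgv genes were seen in 87 T cells and Trdv genes in 60. Of the Klrd1+ cells 3.55% had a Trgv UMI (2.08 to 5.62%), against 0.106% of naive-type cells (0.0128 to 0.381%). For Trdv the shares were 0.835% (0.228 to 2.12%) of Klrd1+ cells and 0.687% (0.366 to 1.17%) of naive-type cells.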

How the results depend on the processing

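Of 807 values recomputed for 65 results under 20 alternatives, 717 stayed within the counting interval, within 1.5 times the value reported or, for a difference, on the same side of 0. The other 90 moved further. The differences between classes in the share of Trbv12-2, Trav14d-3-dv8 and Trav14-2 kept their sign. With the prior in proportion to depth the median log2 difference over the tested segments was 0.43 in Cxcr3+ and -0.25 in Klrd1+ cells, of the other sign than -0.11 and 0.19 with the fixed prior. With doublets kept by the highest hashtag count, Trav was seen in 16.0% and Trbv in 12.3% of T cells, and 4.45% of T cells with Trbv had 2 or more. In hashtag 2 the same alternative gave Il1rl1+ cells an effective number of Trav of 22.2 and Trav12-3 a share of 12.7%. Under stricter cell filters (1000 genes, 5% mitochondrial), detection was 14.3% for Trav and 11.8% for Trbv, and thinned to 1500 UMIs it was 6.86% and 5.05%. Leaving out each hashtag in turn gave 12.4 to 14.0% for Trav and 9.91 to 11.4% for Trbv. The lowest values of both were without hashtag 5. Alpha copies summed gave effective numbers of Trav of 16.6 in Il1rl1+ and 18.0 in naive-type cells, and 7.5 in Il1rl1+ cells of hashtag 2. In Il1rl1+ against naive-type cells 857 genes passed the fold, 1689 with at least 2 UMIs of Il1rl1 and 516 against all other T cells. In Foxp3+ cells 846 did, 1337 with cells in 1 class only. In Cxcr3+ cells 803 did, 1383 with no minimum of UMIs and 209 against all other T cells, and in Klrd1+ cells 398, 1832 and 1033. With the prior in proportion to depth the calls were 949 higher and 114 lower in Cxcr3+ cells (584 and 219 with the fixed prior), and 220 and 145 in Klrd1+ cells (299 and 99). The cause of these moves was not tested. No paired analysis was possible because there is 1 expression library and no test was run. A V segment was read in few cells, usually as 1 UMI, so a segment at 0 in a class may be in use there, and joints were not read, so no clone can be told from a V segment.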
